A study of Arabidopsis thaliana with 8 samples.

Results

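The chloroplast genome of Arabidopsis thaliana encodes proteins of the photosynthetic complexes, part of the plastid ribosome and the core of an RNA polymerase, besides plastid tRNAs and rRNAs. Its genes were taken as all rows of the expression table whose identifier starts with ATCG, which gave 133 of the 33977 genes listed. They are described here in floral buds pooled over stages 8 to 10 from transgenic line 4-3, which carries pSTK::amiRNACWIN24 (called amiRNACWIN24 below), and from wild type (WT), with 4 biological replicates of each genotype. In that line the promoter of the ovule identity gene STK drives an artificial microRNA whose name points to CWINV2 and CWINV4, invertases of the cell wall that split sucrose, so that it is meant to act where ovules form, whereas the buds sampled hold all floral organs. The transgenic group is 1 line, and its libraries are replicates of that line.

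Plastid genes are read by polymerases of different origin. A bacterial-type polymerase, whose core subunits are encoded by the chloroplast genes rpoA, rpoB, rpoC1 and rpoC2 and which needs sigma factors made from nuclear genes, transcribes most photosynthesis genes in green tissue. Phage-type polymerases encoded in the nucleus transcribe housekeeping genes, among them the unit that starts with rpoB, and are prominent in young, non-green plastids. Many chloroplast genes are transcribed together and then cut into smaller RNAs, and plastid RNAs carry poly(A) tails mainly when they are being degraded.

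The values are RPKM, reads scaled by transcript length and by the mapped reads of the library. Between 22.5 and 26.2 M reads per library were assigned to genes in amiRNACWIN24 and between 25.5 and 26.7 M in WT. Chloroplast genes held few of them: 1790, 18091, 1945 and 2105 reads in amiRNACWIN24 replicates 1 to 4 and 21002, 5052, 5216 and 10824 reads in WT replicates 1 to 4, or 0.00683% to 0.0823% of the assigned reads. The targeted gene CWINV4 was lower in amiRNACWIN24, at 13.8 RPKM on average against 26.9 RPKM in WT (log2 fold change -0.95, limma adjusted p = 0.00015). CWINV2 had a mean too low to be tested, with 2.75 RPKM in WT replicate 1 and at most 0.104 RPKM in any other library. STK was also lower in amiRNACWIN24, as were 3 of 4 pollen markers and 1 of 5 floral organ identity genes, beside 21.0% called lower among all genes tested. The pollen markers summed to 23.6 to 39.6 RPKM in amiRNACWIN24 and 206 to 521 RPKM in WT. BCP1, the pollen marker that did not pass, held 11.7 RPKM in WT replicate 1 and 0.106 to 0.697 RPKM in the other libraries. The organ identity genes summed to 674 to 739 RPKM in amiRNACWIN24 and 742 to 912 RPKM in WT. The part of these markers in the chloroplast levels was not tested.

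Of the 133 rows, 88 are protein genes, 37 are tRNA genes and 8 are rRNA genes. All 45 tRNA and rRNA rows were listed at 0 in all 8 libraries, as were the protein genes petG, petN, psaI, psbM and psbT. These protein genes are shorter than the 125 bp reads, as are psbF and psbI, which had reads. The rRNA rows at 0 include genes of 1491 and 2810 bases, also in WT replicate 1 with its 21002 chloroplast reads. The sources used here do not say if tRNA and rRNA rows were counted, and this was not tested. No floor is therefore set for them. For a counted gene, 0 allows up to 3 reads per library, a floor that covers counting error only. The other 83 protein genes had reads, 55 of them with a mean of at least 1 RPKM, which were tested, and 28 below that level. The 28 untested genes averaged between 0.0411 and 0.933 RPKM, and just above the limit stood the ndhB copy of inverted repeat A at 1.04 RPKM. Whether RNA was selected by its poly(A) tail is not given in the sources used here.

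The summed level of the chloroplast protein genes was 64.0, 650.2, 72.9 and 76.0 RPKM in amiRNACWIN24 replicates 1 to 4, against 687, 204, 219 and 417 RPKM in WT replicates 1 to 4. Replicate 2 of amiRNACWIN24 stood 8.92 times above the median of the other 3 libraries of its genotype, and WT replicate 1 stood 3.14 times above the median of the other WT libraries. The genotype means were 216 ± 290 RPKM and 382 ± 225 RPKM (SD, n = 4 each), and their log2 ratio was -0.82, or -2.43 without amiRNACWIN24 replicate 2. The other 3 amiRNACWIN24 libraries averaged 71.0 ± 6.19 RPKM (SD, n = 3) and lay below all 4 WT libraries. In bulk RNA, fewer plastids or green cells and less RNA per plastid cannot be told apart.

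Other quantities moved with this sum from library to library. The 152 mitochondria-encoded rows summed to 45.1, 175, 44.9 and 49.1 RPKM in amiRNACWIN24 and to 221, 129, 129 and 184 RPKM in WT. The share of the RPKM denominator that was not assigned to any listed gene was 2.04%, 11.9%, 2.14% and 2.13% in amiRNACWIN24 and 12.3%, 3.20%, 3.32% and 4.63% in WT. In each measure replicate 2 was the highest amiRNACWIN24 library, and replicate 1 was the highest WT library with replicate 4 next. Of 33 mitochondrial genes tested, 12 were lower (36.4%) and 0 higher, beside 21.0% and 29.4% of all genes tested, with a median log2 fold change of -0.79. The part of the unassigned reads in the chloroplast levels was not tested.

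**Figure D1:**
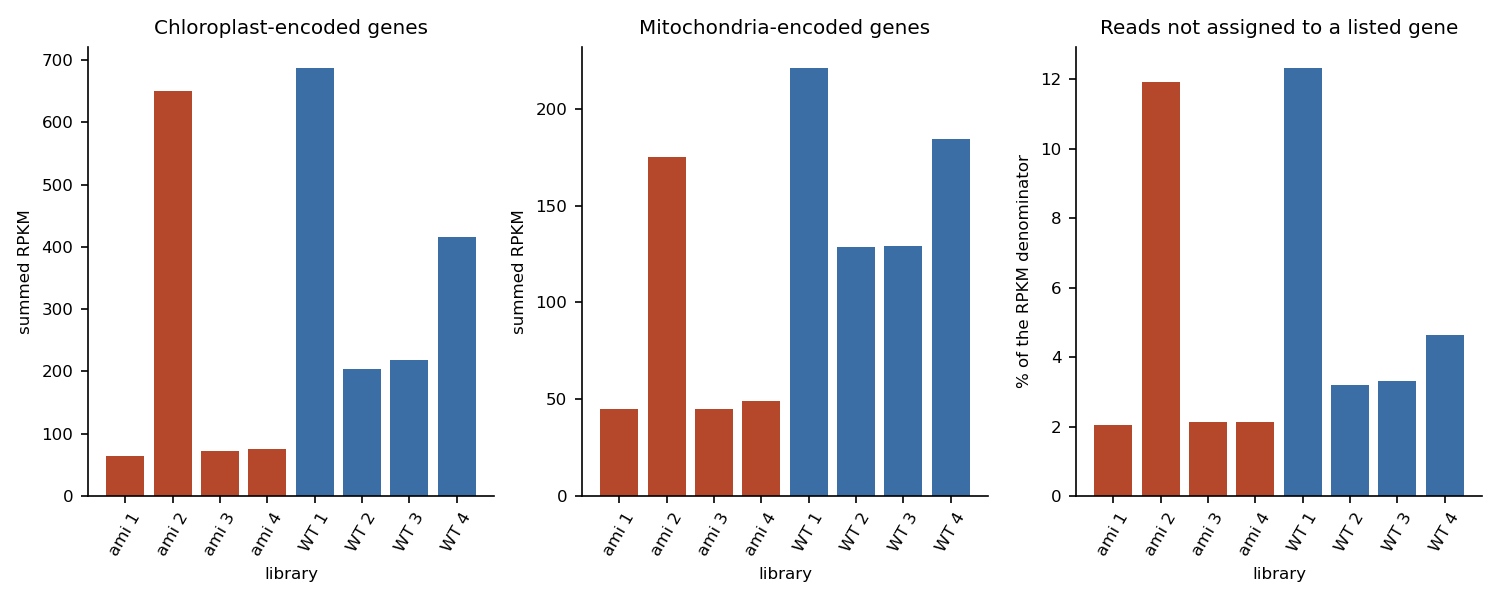
Summed RPKM of the chloroplast-encoded protein genes (left) and of the mitochondria-encoded rows (middle), and percent of the RPKM denominator not assigned to a listed gene (right), 1 bar per library with amiRNACWIN24 (ami) before WT. Replicate 2 of amiRNACWIN24 (650.2 RPKM of chloroplast genes, 175 RPKM of mitochondrial genes, 11.9% unassigned) and WT replicate 1 (687 RPKM, 221 RPKM, 12.3%) are the highest bars of their genotype in each panel.

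In 8 of the 10 protein classes at least 1 chloroplast gene was lower in amiRNACWIN24, and none was higher in the fit over all 8 libraries. Of the 55 genes tested, 17 were lower in amiRNACWIN24, 0 were higher and 38 did not pass (limma on log2(RPKM + 0.5), Benjamini-Hochberg adjusted p under 0.05 over 19082 genes), where 27 of the 55 had an unadjusted p under 0.05. The 17 are 30.9% of the genes tested, beside 21.0% called lower and 29.4% called higher among all genes tested. The log2 fold change was negative in 52 of the 55, with a median of -1.12, whereas the median of all genes tested was 0.07. In 11 of the 55, or 20%, all amiRNACWIN24 values lay below all WT values, beside 18.4% of all genes tested.

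These counts turn on a few libraries. Of the 17 genes, 13 were lower with each library left out in turn, and atpI, psbK, rpl20 and rpoA were not. Over those fits the adjusted p reached 0.13 for atpI, 0.085 for psbK, 0.073 for rpl20 and 0.097 for rpoA (limma). Without amiRNACWIN24 replicate 2, 45 of the 52 genes then tested were lower and 0 were higher, beside 17.4% called lower and 29.6% called higher among all genes. Without that library and WT replicate 1 together, a choice made after seeing the data, 40 of 46 were lower and 1, rpoC1, was higher, beside 21.4% and 29.0% of all genes. With the trend over exon length removed in each library, psaJ alone of the 17 remained lower (1 of 55, beside 14.1% of all genes) and the median of the 55 was -0.56. The 17 genes called lower had a median length of 483 bases and the 38 others of 543 bases.

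**Figure D2:**
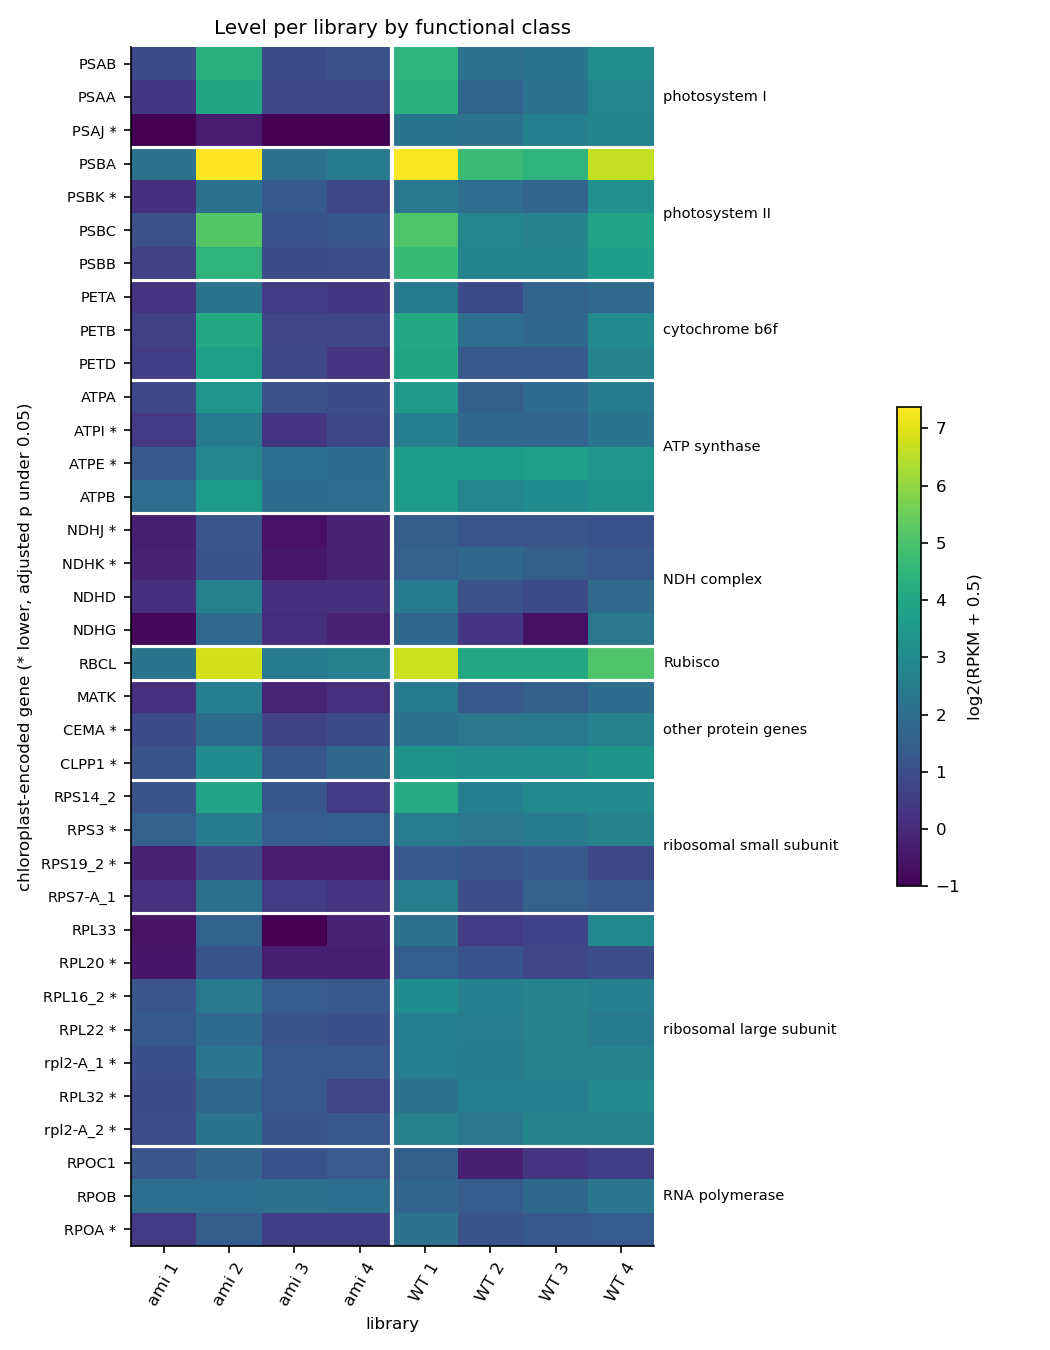
Level of the tested chloroplast genes that were called lower or chosen by level or size of change (rows, grouped by functional class and in genome order within a class) in the 8 libraries (columns, amiRNACWIN24 left of WT), as log2(RPKM + 0.5); an asterisk marks the 17 genes called lower. Replicate 2 of amiRNACWIN24 and WT replicate 1 are the brightest columns for psbA, rbcL and most photosystem genes, while the rpoB row is nearly even.

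The RNA polymerase genes were the only class with a median log2 fold change above 0, at 0.22 over the 3 genes tested; with the exon length trend removed it was -0.21, and no class median was above 0. rpoB (TAIR10, Pltd:23111-26329, minus strand) encodes the beta subunit. Its level was 3.59, 3.60, 3.73 and 3.62 RPKM in amiRNACWIN24 and 2.84, 2.20, 3.03 and 4.43 RPKM in WT, and the log2 fold change 0.22 ± 0.16 (SE) did not pass (limma adjusted p = 0.27). The 4 amiRNACWIN24 libraries were nearly equal, replicate 2 included, and fell inside the WT range. Without WT replicate 4, the highest of that group, the fold change was 0.38 and passed (limma adjusted p = 0.032). A stretch of 12.8% of rpoB has a near copy in the mitochondrial genome, so some of its reads are uncertain in origin.

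rpoC1 (Pltd:20251-23084, minus strand), the gene of the beta' subunit, stood at 1.79, 2.85, 1.68 and 2.15 RPKM in amiRNACWIN24 and 2.40, 0.337, 0.755 and 0.926 RPKM in WT. WT replicate 1 was among the amiRNACWIN24 values and the other WT libraries were below all of them. The log2 fold change of 0.84 ± 0.33 (SE) did not pass (limma adjusted p = 0.052). It passed at 1.17 without WT replicate 1 (limma adjusted p = 0.0021) and at 1.05 without amiRNACWIN24 replicate 2 and WT replicate 1 (limma adjusted p = 0.0075). rpoC2, which encodes the beta'' subunit, averaged 0.626 RPKM and was not tested; its values were 0.471, 1.13, 0.668 and 0.761 RPKM in amiRNACWIN24 and 1.06, 0.167, 0.301 and 0.449 RPKM in WT.

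rpoA, which encodes the alpha subunit and lies at the end of the large ribosomal protein unit and not beside the other rpo genes, was lower. It had 0.831, 2.29, 0.954 and 0.956 RPKM in amiRNACWIN24 and 3.89, 1.69, 2.05 and 2.23 RPKM in WT (log2 fold change -0.77 ± 0.27 SE, limma adjusted p = 0.037). The groups overlapped because replicate 2 of amiRNACWIN24 lay among the WT values. Relative to the chloroplast total of each library, rpoB, rpoC1 and rpoC2 were higher in amiRNACWIN24, at log2 1.57, 2.15 and 1.46 (limma adjusted p = 0.049, 0.0028 and 0.0056), whereas rpoA did not pass at 0.37. On it 8 of the 59 genes tested were higher and 2 lower, beside 29.4% and 20.9% of all genes. That scale counts each gene against the others of its library, so it shows unequal change and not a rise in level.

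Photosystem II splits water, and its genes include psbA, the chloroplast gene with the highest mean RPKM over the 8 libraries; in amiRNACWIN24 replicates 1, 3 and 4 rbcL was above it. psbA, which encodes the D1 protein of its reaction centre, is shown with its promoter elements because it had the highest mean of all chloroplast genes and, among those tested, the largest ratio of amiRNACWIN24 replicate 2 to the other libraries of that genotype. The sequence is from the RefSeq TAIR10.1 chloroplast genome, Pltd:1530-1559 on the minus strand, 85 bases before the annotated start of psbA, with its elements of the bacterial promoter type in capitals.
psbA promoter elements: TTGACAtggctatataagtcatgtTATACT
Elements of this spelling were taken as TTGACA followed after 15 to 19 bases by TANNNT on the gene's strand. They were in 3 of 88 windows of 300 bases upstream of the annotated starts of protein genes, and in 0 on the other strand. The 3 windows are those of psbA and of both ycf1 rows. TTGACA alone was in 9 of the 88 windows, or 10.2%, and in 6 of them on the other strand, where it can overlap the longer motif only on the gene's strand. The rpoB window held neither spelling; a match is a description of letters only.

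psbA (Pltd:383-1444, minus strand) stood at 3.98, 166, 3.88 and 4.88 RPKM in amiRNACWIN24 and at 161, 25.6, 21.3 and 96.9 RPKM in WT. That of replicate 2 was above every WT library and the other 3 amiRNACWIN24 libraries were below every WT library. The log2 fold change of -2.25 ± 1.12 (SE) did not pass (limma adjusted p = 0.12; exact p = 0.23 in the two-sided permutation test), and it was -3.53 without amiRNACWIN24 replicate 2 (limma adjusted p = 0.0027). Near copies of 46.9% of psbA lie in the nuclear genome and of 47.6% in the mitochondrial genome, so part of its reads may be shared.

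psbB and psbC, which encode the antenna proteins CP47 and CP43, followed the same libraries. psbB held 1.08, 21.2, 1.39 and 1.51 RPKM in amiRNACWIN24 and 23.9, 6.39, 6.43 and 12.3 RPKM in WT (log2 fold change -1.71, limma adjusted p = 0.084). psbC, whose start overlaps the end of psbD, held 1.60, 35.3, 1.67 and 1.86 RPKM in amiRNACWIN24 and 33.5, 6.63, 6.01 and 14.4 RPKM in WT (log2 fold change -1.48, limma adjusted p = 0.18). In both genes replicate 2 of amiRNACWIN24 lay within or above the WT range, and the remaining 3 libraries lay below it. Of the 9 photosystem II genes tested only psbK, a small subunit gene, was lower (log2 fold change -1.23, limma adjusted p = 0.033). Among all genes tested 21.0% were called lower. The median of the class was -1.39. psbK held 0.603, 4.00, 2.03 and 1.22 RPKM in amiRNACWIN24 and 4.62, 3.51, 2.83 and 9.02 RPKM in WT, on 3 to 19 reads a library in amiRNACWIN24 and 14 to 47 in WT, and its groups overlapped.

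Photosystem I held the gene with the largest difference of all. psaJ, which encodes a small membrane subunit, is the short plus-strand gene at Pltd:66929-67063 in TAIR10. Its annotated sequence of 135 bases is shown because the finding rests on so short a target, with the start and stop codons in capitals (RefSeq, TAIR10.1).
psaJ: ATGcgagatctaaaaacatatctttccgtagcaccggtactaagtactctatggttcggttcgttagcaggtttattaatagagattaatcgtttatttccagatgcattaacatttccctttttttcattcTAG
psaJ had 0, 0.290, 0 and 0 RPKM in amiRNACWIN24, from 0, 1, 0 and 0 reads, and 4.32, 4.03, 5.58 and 6.34 RPKM in WT, from 17, 15, 20 and 24 reads. Every WT library was above every amiRNACWIN24 library, replicate 2 included. That library was the highest of its genotype for psaJ, by 1 read, as it was for the other 12 photosystem genes tested. The log2 fold change was -3.29 ± 0.21 (SE; limma adjusted p = 8.1e-06), a value that depends on the pseudocount. An exact permutation test, two-sided, gave p = 0.029, the lowest p possible with 70 arrangements. From summed reads, 1 against 76, the ratio per mapped read was 0.0139 (95% exact interval 0.000348 to 0.0799, counting error only). It was also the only gene of the 55 that passed with the exon length trend removed, at -2.54 (limma adjusted p = 0.00017).

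psaA and psaB encode the reaction centre proteins of photosystem I and share a transcription unit with rps14. psaA held 0.780, 15.7, 1.21 and 1.21 RPKM in amiRNACWIN24 and 18.4, 2.74, 3.91 and 6.52 RPKM in WT. psaB held 1.31, 19.3, 1.30 and 1.63 RPKM in amiRNACWIN24 and 21.2, 3.85, 4.25 and 8.17 RPKM in WT. Neither passed, with log2 fold changes of -1.24 and -1.21 (limma adjusted p = 0.20 and 0.21), and replicate 2 of amiRNACWIN24 was again among the WT values. rps14, named for its level among the ribosomal genes, had -1.48 (limma adjusted p = 0.072), close to that of psaA and psaB.

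**Figure D3:**
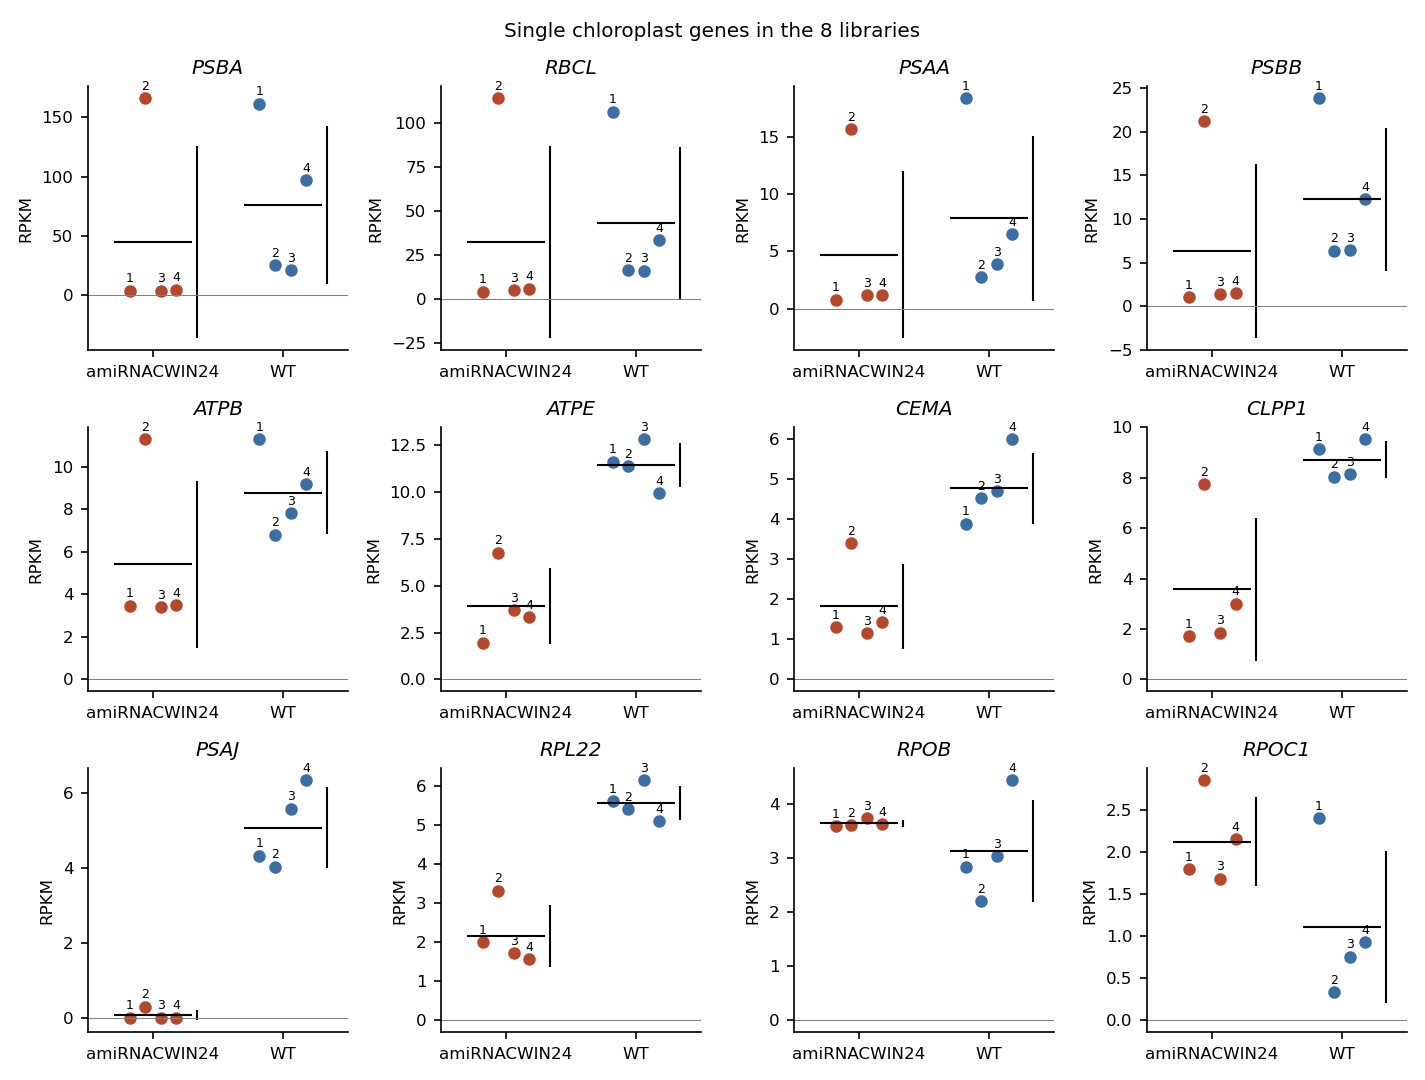
RPKM of 12 chloroplast genes in each library (points, numbered by replicate; amiRNACWIN24 left, WT right), with the mean (horizontal line) and SD (vertical line, n = 4 each). For psbA, rbcL, psaA, psbB and atpB replicate 2 of amiRNACWIN24 lies at or above the lower WT values; for atpE, cemA, clpP1, psaJ and rpl22 it is below all of them, and the rpoB groups overlap.

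rbcL (Pltd:54958-56397, plus strand) encodes the large subunit of Rubisco, the enzyme that fixes carbon dioxide. It stood at 4.33, 114, 4.98 and 5.94 RPKM in amiRNACWIN24 and at 107, 16.7, 16.3 and 33.5 RPKM in WT. In amiRNACWIN24 replicate 2 was above all WT libraries and the other 3 were below them, and the log2 fold change of -1.43 ± 0.96 (SE) did not pass (limma adjusted p = 0.23). Near copies of 39.8% of rbcL lie in the nuclear and in the mitochondrial genome.

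The cytochrome b6f complex passes electrons between the photosystems. petA (cytochrome f) had a log2 fold change of -0.87, petB (cytochrome b6) of -1.17 and petD (subunit IV) of -1.03, and none of the 3 genes tested passed (limma adjusted p = 0.12, 0.22 and 0.29). petB held 1.04, 16.5, 1.17 and 1.17 RPKM in amiRNACWIN24 and 16.2, 3.53, 2.96 and 7.54 RPKM in WT. petA held 0.737, 4.23, 0.863 and 0.786 RPKM in amiRNACWIN24 and 4.89, 1.36, 2.62 and 3.15 RPKM in WT. The pattern of both over libraries was that of psaA: high in replicate 2 of amiRNACWIN24 and replicate 1 of WT.

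Among the 6 ATP synthase genes, atpE and atpI were lower and the other 4 did not pass, beside 21.0% called lower among all genes tested. The median of the 6 was -0.99. atpE (epsilon subunit, Pltd:52265-52663, minus strand) had 1.97, 6.77, 3.69 and 3.32 RPKM in amiRNACWIN24 and 11.6, 11.4, 12.8 and 9.93 RPKM in WT. The groups did not overlap, and the log2 fold change was -1.53 ± 0.26 (SE; limma adjusted p = 0.00093; exact p = 0.029). The WT libraries were nearly level here, replicate 1 included, in contrast to psbA and rbcL.

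atpB (beta subunit) is transcribed with atpE and overlaps its first bases. It stood at 3.47, 11.3, 3.41 and 3.49 RPKM in amiRNACWIN24 and at 11.3, 6.81, 7.82 and 9.18 RPKM in WT (log2 fold change -0.81, limma adjusted p = 0.060). The ratio of atpE to atpB was 0.567, 0.599, 1.08 and 0.952 in amiRNACWIN24 and 1.03, 1.67, 1.64 and 1.08 in WT, so neighbours of 1 unit kept different proportions in the libraries. For atpA (alpha subunit) the fold change was -0.82 (limma adjusted p = 0.26). atpI (subunit a) was lower at -1.08 (limma adjusted p = 0.049), but the whole of the gene has a nuclear copy with 98.5% identity, so its reads are uncertain in origin. Its values were 0.847, 4.91, 0.756 and 1.26 RPKM in amiRNACWIN24 and 5.50, 2.95, 2.81 and 4.23 RPKM in WT, with replicate 2 of amiRNACWIN24 among those of WT.

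The NDH complex takes part in cyclic electron flow around photosystem I, and 5 of its 12 rows reached the level for testing. Of these, ndhK and ndhJ were lower and 3 did not pass, beside 21.0% called lower among all genes tested. ndhK held 0.386, 1.73, 0.223 and 0.391 RPKM in amiRNACWIN24 and 2.48, 3.05, 2.39 and 1.95 RPKM in WT. The groups did not overlap (log2 fold change -1.47 ± 0.31 SE, limma adjusted p = 0.0033). ndhK rested on 7, 30, 4 and 7 reads in amiRNACWIN24 and 49, 57, 43 and 37 reads in WT. Its neighbour ndhJ was lower at -1.22 (limma adjusted p = 0.012), with 0.313, 1.81, 0.158 and 0.397 RPKM in amiRNACWIN24 and 2.30, 1.83, 1.82 and 1.65 RPKM in WT. ndhJ rested on 4, 22, 2 and 5 reads in amiRNACWIN24 and 32, 24, 23 and 22 reads in WT. ndhD, at -0.79, and ndhG, at -0.72, did not pass (limma adjusted p = 0.27 and 0.40), and ndhD held 0.590, 5.94, 0.596 and 0.598 RPKM in amiRNACWIN24 and 4.90, 1.60, 1.31 and 3.19 RPKM in WT. The 7 rows below the level for testing averaged 0.417 to 0.928 RPKM.

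Genes for proteins of the large ribosomal subunit were lower in 6 of the 8 tested, beside 21.0% of all genes, with a median log2 fold change of -1.18; 2 of the 6 are the copies of rpl2 in the inverted repeat, which share their sequence. rpl22 (Pltd:83467-83949, minus strand) had 2.01, 3.32, 1.72 and 1.57 RPKM in amiRNACWIN24 and 5.62, 5.41, 6.16 and 5.10 RPKM in WT. Its groups did not overlap (log2 fold change -1.23 ± 0.18 SE, limma adjusted p = 0.00044); it overlaps rps3 by a few bases. rpl16 held 1.83, 4.70, 2.22 and 2.04 RPKM in amiRNACWIN24 and 8.00, 5.69, 6.18 and 5.68 RPKM in WT (log2 fold change -1.17, limma adjusted p = 0.0021).

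The copies of rpl2 gave -1.11 and -1.19 (limma adjusted p = 0.0029 and 0.0021), and reads cannot be assigned to either copy by sequence. The copy in repeat A held 1.59, 4.41, 1.97 and 1.93 RPKM in amiRNACWIN24 and 5.50, 4.84, 5.89 and 6.01 RPKM in WT, and that in repeat B held at most 4.13 RPKM in amiRNACWIN24 and 4.49 to 6.25 RPKM in WT. rpl32, a short gene in the small single-copy region, was lower at -1.40 (limma adjusted p = 0.00072), with 1.41, 2.95, 1.90 and 1.19 RPKM in amiRNACWIN24 and 4.10, 5.70, 5.45 and 7.18 RPKM in WT. It rested on 6, 12, 8 and 5 reads in amiRNACWIN24 and 19, 25, 23 and 32 reads in WT. WT replicate 1 lay within the other WT values for rpl22 and below them for rpl32. rpl33 had the largest log2 fold change of the class, -1.60, and did not pass (limma adjusted p = 0.056). It stood at 0.186, 2.53, 0 and 0.377 RPKM in amiRNACWIN24 and at 3.93, 0.903, 1.12 and 7.10 RPKM in WT, so its WT values spread widely.

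Of the 11 small subunit rows tested, rps3 and rps19 were lower and 9 did not pass, beside 21.0% called lower among all genes tested. The class median was -0.88. rps3 held 2.45, 4.94, 2.19 and 2.36 RPKM in amiRNACWIN24 and 5.23, 4.47, 5.16 and 6.19 RPKM in WT (log2 fold change -0.78 ± 0.21 SE, limma adjusted p = 0.011). The value of replicate 2 of amiRNACWIN24 fell between WT libraries. rps7, in its inverted repeat A copy, had a log2 fold change of -0.82 and did not pass (limma adjusted p = 0.15). rps19 held 0.402, 1.26, 0.271 and 0.271 RPKM in amiRNACWIN24 and 2.09, 1.82, 2.02 and 1.28 RPKM in WT (log2 fold change -1.21, limma adjusted p = 0.0043). These came from 3, 9, 2 and 2 reads in amiRNACWIN24 and 17, 14, 15 and 10 reads in WT. Its groups did not overlap, but replicate 2 of amiRNACWIN24 was just under WT replicate 4, at 9 against 10 reads.

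The fold changes varied along gene clusters. In the order of transcription from rpoB to atpA, the log2 fold change was 0.22 for rpoB, 0.84 for rpoC1, 0.39 for rpoC2 and -0.08 for rps2. It was then -1.08 for atpI, -1.45 for atpH, -0.90 for atpF and -0.82 for atpA. rpoC2 and rps2 averaged under 1 RPKM and come from the fit with no filter. The whole of rps2, like that of atpI, has a nuclear copy (96.4% identity for rps2), so their reads are uncertain in origin. Near copies of 8.5% of rpoC1 and 4.5% of rpoC2 also lie in the nuclear genome. In the ribosomal unit the 5 genes from rpl2 to rpl16 had -1.11, -1.21, -1.23, -0.78 and -1.17 and all passed. rpl14, which follows them, had -0.31 and did not pass, and rpoA at the end of the unit passed at -0.77.

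**Figure D4:**
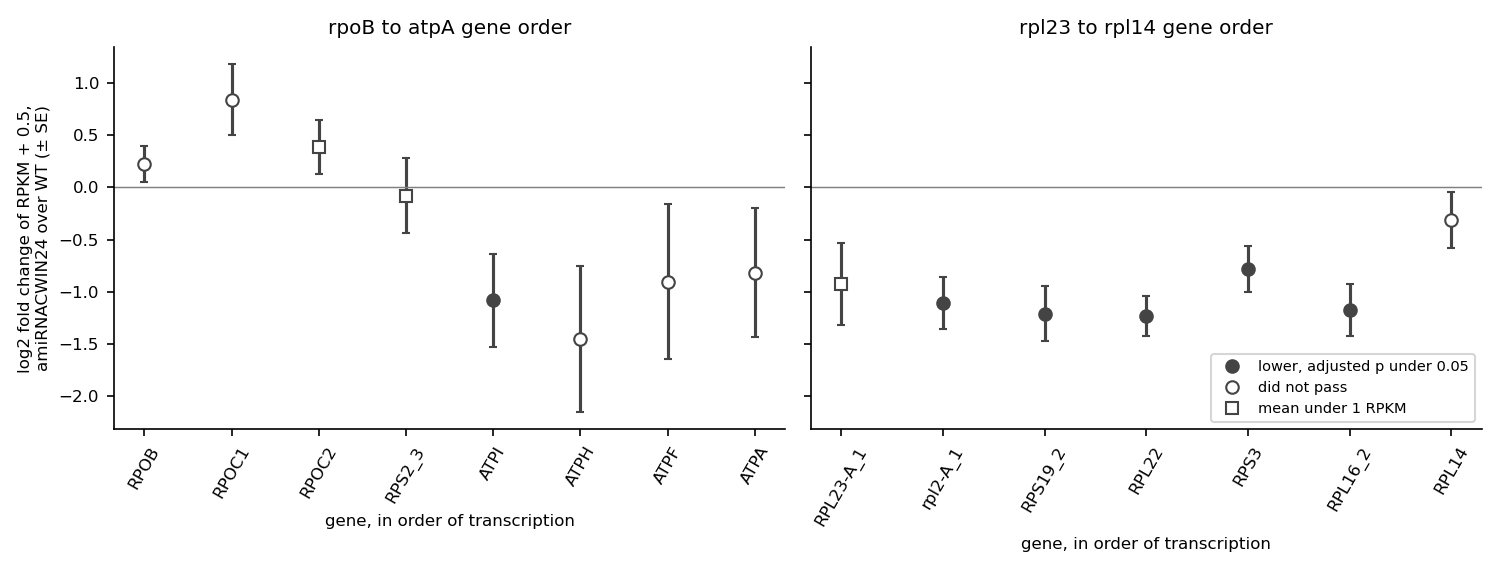
Log2 fold change of RPKM + 0.5 (amiRNACWIN24 over WT, ± SE) for genes in the order of transcription from rpoB to atpA (left) and from rpl23 to rpl14 (right). Points and SE come from the fit with no filter. Filled circles passed at an adjusted p under 0.05 in the reported fit, which needs a mean of at least 1 RPKM, and open circles did not. In the fit with no filter atpI, drawn filled, had a limma adjusted p of 0.082. Squares mark genes with a mean under 1 RPKM. The rpo genes at the left lie above 0 and atpI to atpA below it.

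Of the 5 remaining protein genes tested, clpP1 and cemA were lower and 3 did not pass, beside 21.0% called lower among all genes tested. clpP1 encodes a catalytic subunit of the plastid Clp protease, and its level was 1.71, 7.75, 1.85 and 3.01 RPKM in amiRNACWIN24 and 9.12, 8.04, 8.15 and 9.54 RPKM in WT (log2 fold change -1.39 ± 0.34 SE, limma adjusted p = 0.0069). cemA, a gene of an inner envelope membrane protein, had 1.30, 3.40, 1.15 and 1.43 RPKM in amiRNACWIN24 and 3.88, 4.52, 4.69 and 6.0 RPKM in WT (log2 fold change -1.26 ± 0.25 SE, limma adjusted p = 0.0022). In both genes the groups did not overlap, though replicate 2 of amiRNACWIN24 was the nearest to WT. matK, the maturase gene inside the trnK intron, had -1.12 and did not pass (limma adjusted p = 0.10). accD, a fatty acid synthesis gene, and the large genes ycf1 and ycf2 were too low to be tested. The complete ycf1 row, for a protein of the inner envelope, held 0.0976, 0.949, 0.127 and 0.0989 RPKM in amiRNACWIN24 and 1.17, 0.887, 1.13 and 1.06 RPKM in WT; in the fit with no filter its log2 fold change was -1.05 (limma adjusted p = 0.014). With a mean under 1 RPKM it is not among the 17.

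The libraries that stood apart exceeded the others unequally from class to class. Replicate 2 of amiRNACWIN24 exceeded the median of the other amiRNACWIN24 libraries by a class median of 22.9 times for Rubisco, 15.7 for photosystem II, 14.8 for photosystem I and 13.7 for cytochrome b6f. That ratio was 6.50 for ATP synthase, 5.76 for NDH, 5.40 for the small ribosomal subunit, 2.31 for the large subunit and 1.59 for the polymerase. WT replicate 1 exceeded the median of the other WT libraries by 6.4, 4.90, 3.86 and 4.60 times in the first 4 of these classes and by 2.28, 3.07, 2.25, 1.22 and 1.89 times in the other 5.

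Gene by gene, these library ratios went together across the 55 genes, with Pearson's r = 0.80 and Spearman's rho = 0.81 on the log2(RPKM + 0.5) scale; genes are not independent replicates, and all share the same libraries. Replicate 2 was the highest amiRNACWIN24 library for 54 of the 55 genes, and in WT replicate 1 was highest for 39 and replicate 4 for 12.

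**Figure D5:**
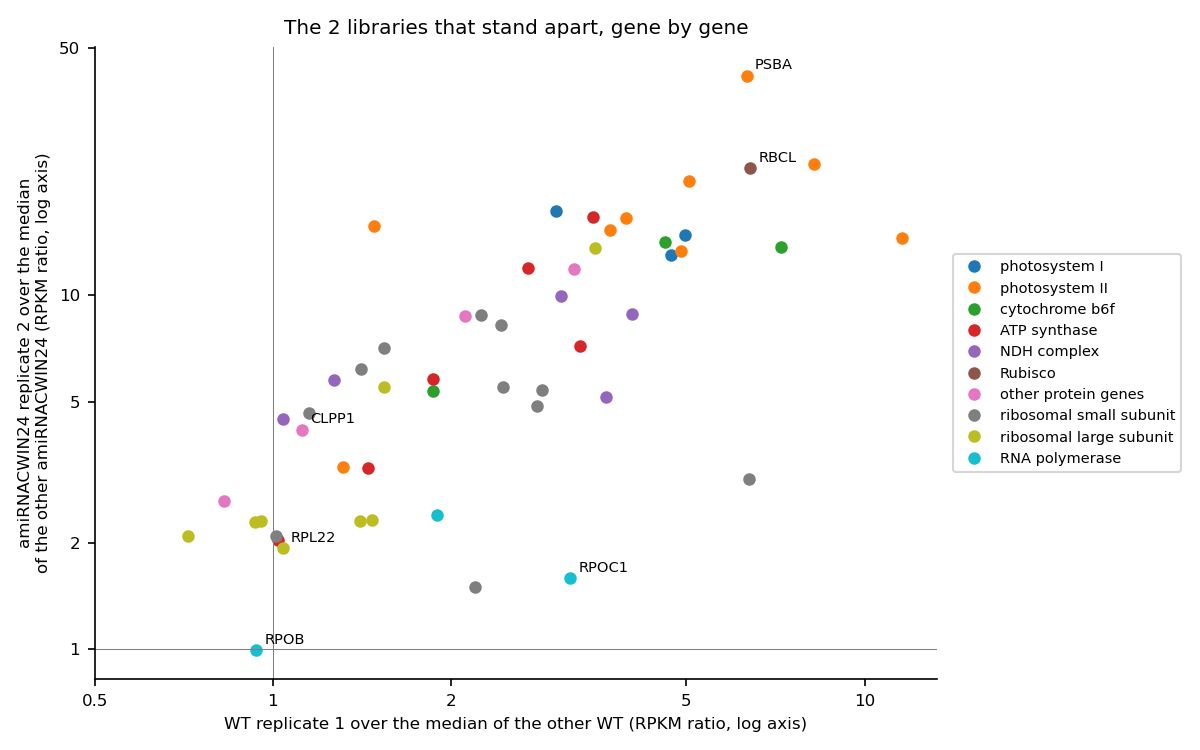
For each tested gene, the RPKM ratio of amiRNACWIN24 replicate 2 to the median of the other amiRNACWIN24 libraries (y) against that of WT replicate 1 to the median of the other WT libraries (x), both log axes, coloured by class. psaJ and ycf3 are not drawn because their median in the other amiRNACWIN24 libraries is 0; psbA (41.8 and 6.32) and rbcL (22.9 and 6.4) lie at the upper right and rpoB (0.993 and 0.937) at the lower left.

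The make-up of the chloroplast RNA therefore differed between libraries as well as its amount. psbA and rbcL together held 13.0%, 43.1%, 12.2% and 14.3% of the chloroplast RPKM in amiRNACWIN24 and 39.0%, 20.7%, 17.2% and 31.3% in WT. The 4 rpo genes held 10.4%, 1.52%, 9.65% and 9.86% in amiRNACWIN24 and 1.48%, 2.15%, 2.80% and 1.93% in WT. The rpo share of 3 amiRNACWIN24 libraries was above that of every WT library, and the share in replicate 2 was next to that of WT replicate 1. The ratio of rpoC1 to psaA was 2.30, 0.182, 1.39 and 1.78 in amiRNACWIN24 and 0.131, 0.123, 0.193 and 0.142 in WT, with replicate 2 again inside the WT range.

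Nuclear genes of the same complexes did not show the library difference. The 30 nuclear subunits of the photosystems, cytochrome b6f, ATP synthase and Rubisco summed to 21763, 20607, 20653 and 23612 RPKM in amiRNACWIN24 and 27770, 33972, 30782 and 29505 RPKM in WT. For this sum replicate 2 of amiRNACWIN24 was at 0.947 times the median of the others and WT replicate 1 at 0.902 times. Of the 30 genes 25 were lower and 0 higher, with a median of -0.46, beside 21.0% and 29.4% of all genes tested. PSAK and PSAE1, subunits of photosystem I, had log2 fold changes of -0.81 and -0.78 (limma adjusted p = 0.00021 and 0.00022).

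The light-harvesting genes LHCB1.1, LHCB2.1 and CAB3, taken as markers of green tissue, were all lower, by -0.88, -0.75 and -0.74 (limma adjusted p = 0.00032, 0.00025 and 0.00073). Their sum was 2533, 2386, 2265 and 2962 RPKM in amiRNACWIN24 and 4214, 4520, 4481 and 4357 RPKM in WT, and replicate 2 of amiRNACWIN24 was not high. Their part in the chloroplast levels was not tested. Of 27 nuclear genes for plastid ribosomal proteins 22 were lower and 0 higher (median -0.39), beside 21.0% and 29.4% of all genes, PRPL29 and PRPL18 with the smallest p at -0.64 and -0.61 (limma adjusted p = 0.00045 and 0.00060). With the exon length trend removed 8 of the 30 subunit genes (median -0.17), 5 of the 27 ribosomal genes (median -0.05) and 3 of the 3 light-harvesting genes were lower, beside 14.1% of all genes. In that fit PRPL29 and PRPL18, each at -0.18, did not pass (limma adjusted p = 0.087 and 0.062), and PSAK and PSAE1 were lower at -0.31 and -0.29 (limma adjusted p = 0.0074 and 0.010).

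Nuclear genes for plastid transcription, the sigma factors, phage-type polymerases and proteins that associate with the bacterial-type polymerase, were counted in the same way. Of 21 genes 8 were higher, 2 were lower and 11 did not pass, with a median of 0.17, beside 29.4% called higher and 21.0% called lower among all genes. RPOTmp, a phage-type polymerase of mitochondria and plastids, had 6.55 RPKM in amiRNACWIN24 and 3.58 RPKM in WT on average (log2 fold change 0.80, limma adjusted p = 0.00042), and MURE, a protein of the plastid transcription complex, had 0.56 (limma adjusted p = 0.00084). With the exon length trend removed RPOTmp, at 0.18, and MURE, at 0.15, did not pass (limma adjusted p = 0.063 and 0.10). The 1 gene of the 21 that was higher in that fit was SCA3, a phage-type polymerase of plastids, at 0.26 (limma adjusted p = 0.042), and 0 were lower, beside 2859 higher and 2694 lower of all 19082 genes.

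The authors' deposited table of their own comparison gives values for the same genes. In the authors' deposited table psaJ has a log2 fold change of -5.60 with a false discovery rate of 0.00013, atpE -1.58 with 1.3e-05 and rpl22 -1.48 with 0.00042. The authors' deposited table gives psbA -0.78 with 0.63, rbcL -0.44 with 0.87 and rpoC1 0.88 with 0.096. Its test is not given in the sources used here.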

How the data were processed

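Total RNA of pooled floral buds was treated with DNase, made into Illumina libraries and sequenced as 125 bp paired ends, per the labels' protocols, and the submitters' processing notes name TAIR10. No source used here gives the aligner, counter, strand setting or annotation. The authors deposited RPKM values, 1 column per library, and their comparison of the genotypes as log2 fold changes, p-values and a signed fold change that is a score by its values, per the file headers. Reads were recovered from the RPKM steps: 99.6% to 99.7% of low values per library were whole within 0.05 reads.

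Genotypes were compared with limma 3.58.1 (R 4.3.3) on log2(RPKM + 0.5), with a mean-variance trend, genotype as the only term, a minimum mean of 1 RPKM, and Benjamini-Hochberg adjustment over 19082 genes; the exact permutation test is two-sided over 70 arrangements of the libraries. The p-values measure the spread between these libraries. Summed levels carry no test. Copies elsewhere in the genome were found with blastn 2.17.0 (at least 100 bp and 95% identity). Sums, ratios and plots were made in Python 3.11.15 with pandas 2.3.3, numpy 2.4.6, scipy 1.17.1 and matplotlib 3.10.9. The fit was also run on simulated counts with the same dispersion for all genes and no library that stood apart. That run cannot show how the fit behaves with libraries like amiRNACWIN24 replicate 2.

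The genes named are all rpo genes and rbcL. In every other protein class they are the 3 with the highest mean and the 1 with the largest change, 30 in all. Of these 29 were tested and 10 were lower, beside 21.0% of all genes tested. Choosing by the largest change favours genes that pass, so the 10 do not stand for the chloroplast genes. Other genes were named after their values were seen, psbK, atpI, ndhJ, rpl20, rpl32, rpl22, rps19 and ycf1 among them. Members, classes and nuclear lists were chosen with earlier results of these data known. Chloroplast coordinates in the files match TAIR10.1 except for 8 rows whose bounds differ. The alternatives tried were other pseudocounts, filters, scalings and fits, and each library left out.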

Additional observations from a re-analysis of the deposited data

Results flagged for a closer look

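Of 66 sets of 4 values examined (the 30 named genes, both organelle sums and the unassigned share, in each genotype), 30 had a sample whose gap to the nearest other, divided by the whole range of the set, exceeded Dixon's 95% critical value for 4 samples; chance gives about 1 in 20. In 28 of the 30 that sample was amiRNACWIN24 replicate 2, on the high side. That library had been singled out before the sets were examined, so the count describes it and does not test it. The sets share the same libraries and are not independent, so the rate of 1 in 20 holds for a single set only.

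In amiRNACWIN24 the gap for the photosystem genes was 0.994 for psbA, 0.992 for psbC, 0.978 for psbB, 0.982 for psaB, 0.971 for psaA and 1 for psaJ, the last from 1 read. It was 0.985 for rbcL, 0.992 for petB, 0.964 for petA and 0.955 for petD, and 0.989 for atpB and 0.961 for atpA. The NDH genes ndhD, ndhK and ndhG had 0.999, 0.889 and 0.839, and matK and cemA 0.953 and 0.877. Among ribosomal genes it was 0.925 for rps14, 0.924 for rps7, 0.905 for rps3, 0.864 for rpl16, 0.864 and 0.836 for the copies of rpl2 and 0.851 for rpl33, and rpoA had 0.914. The summed chloroplast level had 0.980, the summed mitochondrial level 0.968 and the unassigned share 0.990.

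In WT replicate 1 was high for rps14 (0.846) and for the unassigned share (0.844). The genes rpoB, rpoC1 and rpoC2 were in neither group among the 30.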

How the results depend on the processing

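Depth limits most chloroplast genes: 50 to 55 of the 88 protein genes had more than 3 reads in amiRNACWIN24 replicates 1, 3 and 4. Over the 24 alternatives and 29 named genes, 579 of 671 fold changes kept their direction and side of the threshold, 56 newly passed, 21 no longer passed and 15 reversed. Counts of genes lower, 17 in the comparison as reported, were 2 of 14 with a mean of at least 5 RPKM (21.9% of all genes then tested). They were 2 relative to the chloroplast total (20.9% of all genes) and 1 with the exon length trend removed (14.1%). They were 41 with array weights (25.6%) and 40 without WT replicate 1 and amiRNACWIN24 replicate 2 together (21.4%). Leaving out 1 library gave 13 to 45, beside 17.0% to 23.4% of all genes. Voom on recovered reads gave 19 lower (24.3% of all genes), with all 17 kept; the other count tests planned were not run. Genes higher, 0 as reported, were 8 relative to the chloroplast total, 1 with array weights and 1 without those 2 libraries. Beside them stood 29.4%, 34.2% and 29.0% of all genes. Without 1 library 0 to 1 were higher, beside 24.4% to 29.6% of all genes.

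Named genes lower, 10 as reported, were 2, 2, 1, 24 and 26 under the first 5 of these settings. Beside them stood 21.9%, 20.9%, 14.1%, 25.6% and 21.4% of all genes. They were 6 without inverted repeat and overlapping genes (20.9% of all genes) and 9 to 26 over the libraries left out (17.0% to 23.4%). With a mean of at least 5 RPKM 12 named genes were tested, and all 12 kept their call. Without inverted repeat and overlapping genes all 21 named genes tested kept theirs. In both settings fewer were lower because fewer were tested. Classes with a member lower, 8 as reported, were 2, 2 and 1 under the first 3. Relative to the chloroplast total the log2 fold change changed sign for atpA (0.41), atpB (0.53), psaB (0.015), petA (0.23), petB (0.0034), petD (0.11), rpoA (0.37), rpl16 (0.11), rps3 (0.52), the copies of rpl2 (0.15 and 0.070), rps7 (0.25), ndhD (0.22) and ndhG (0.053), and rpoB had -0.21 with the exon length trend removed. The log2 ratio of the summed levels was -2.43 to -0.37 over the libraries left out. Apart from genes leaving the test, the cause of these changes was not tested.

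Replicate numbers are shared by the genotypes. Same-numbered libraries deviated from their group means with correlations of -0.27, 0.14, -0.32 and 0.53, so the numbers do not pair the libraries. With the replicate block 15 genes were lower, 14 of them among the 17, beside 18.8% of all genes.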
